A study of Homo sapiens with 12 samples.

Results

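The ZNF genes of human chromosome 19 were taken as the protein-coding genes of GENCODE version 44 (hg38) on that chromosome whose symbol is ZNF followed only by digits, without use of any measured value. There were 240 such genes among 20033 protein-coding genes, beside 1236 other protein-coding genes of chromosome 19 and 236 genes named in the same way on other chromosomes. H3K27ac, the acetylated histone mark found at promoters and enhancers in use, was mapped in HCT116 cells, an established colorectal cancer line, by CUT&RUN, in which an antibody tethers a nuclease that releases the marked chromatin for sequencing. All groups were this unmodified line, stained with a rabbit polyclonal antibody, and 2 replicates were left untreated. Another 2 received 1 μM cobimetinib, an inhibitor of the MAPK kinase MEK1, and 2 received the cytokine TNFα at 100 ng/ml, both for 24 hours. The labels list 12 libraries; the 6 made with IgG are not analysed here.

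Most of these genes encode zinc finger proteins of the C2H2 type, in which a row of fingers reads DNA, and many carry a KRAB domain that recruits the corepressor TRIM28 and, through it, heterochromatin factors. The family grew by tandem duplication, so its genes lie in clusters along chromosome 19, and many of the proteins bind and silence transposable elements. The gene bodies of several clusters are known to carry heterochromatin, whereas their promoters can be active.

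Each library was represented by the authors' list of peaks with a score, and a gene's promoter peak was the highest-scoring peak that overlapped the 1 kb on either side of any of its annotated transcript starts. Its rank, with 1 the highest score of the library, was used in place of the score, which grows with sequencing depth. The lists held from 69813 to 124771 peaks and read depth is unknown from them. Untreated replicate 2 stood apart: its 20000 highest peaks had a median width of 380 bp, against 922 to 1265.5 bp in the other 5 libraries, and 7102 of its peaks were tied at the score that closed this set. The main counts are given with and without it, and named differences of ZNF genes also without a library that moves them by over 1.5 times. Of 10 epithelial or intestinal markers 8 had a promoter peak in every library, and VIL1 and CDX1 had none in any, whereas 0 of 4 leukocyte, 0 of 3 endothelial and 0 of 2 liver markers and 1 of 4 fibroblast markers (COL1A1) had one in every library. Of 6 known targets of the agents, NFKBIA and TNFAIP3 (NF-κB feedback genes) lacked a peak in untreated replicate 2, and none of the other 4 passed the test described below. For cobimetinib against untreated their log2 differences of rank were -2.81 for SPRY4, -1.31 for DUSP6 and -0.35 for ETV5, all targets of MAPK signaling, and 1.70 for BIRC3, a target of NF-κB. For TNFα against untreated that of BIRC3 was 2.37, and for SPRY4, DUSP6 and ETV5 the values were 0.13, -0.89 and -1.21. The differences of these targets are not given with a library left out. The untreated replicates ranked 8488 and 42366 for BIRC3 and 9652 and 4526.5 for DUSP6.

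The promoters below show what the results turn on: marked and unmarked genes, and a block of sequence shared along the largest stretch of the chromosome. They are RefSeq sequence (GRCh38.p14) from 250 bases before to 50 after the first start listed for the gene, on the gene's strand, with 3 words in capitals on either strand. These are CCAAT (read by NF-Y), the GC box core GGGCGG (read by SP1 and related factors) and CCGGAAG (a core of ETS factor sites). ZNF562 at chr19:9675051-9675350 (minus strand) and ZNF576 at chr19:43596142-43596441 (plus strand) had a peak over this window in all 6 libraries.
ZNF562: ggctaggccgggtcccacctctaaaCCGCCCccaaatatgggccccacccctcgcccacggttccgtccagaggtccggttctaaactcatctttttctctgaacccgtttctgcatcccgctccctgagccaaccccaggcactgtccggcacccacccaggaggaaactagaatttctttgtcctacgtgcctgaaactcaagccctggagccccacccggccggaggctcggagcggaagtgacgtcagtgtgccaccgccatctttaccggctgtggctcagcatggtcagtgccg
ZNF576: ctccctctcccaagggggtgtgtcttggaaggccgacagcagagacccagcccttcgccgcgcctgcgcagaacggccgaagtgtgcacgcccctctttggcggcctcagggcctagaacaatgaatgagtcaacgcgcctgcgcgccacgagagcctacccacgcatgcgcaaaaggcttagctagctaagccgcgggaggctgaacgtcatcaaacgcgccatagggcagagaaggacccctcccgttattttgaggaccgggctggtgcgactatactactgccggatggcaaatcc
The other promoters come from the cluster between 19.7 and 24.1 Mb, ZNF430 at chr19:21020407-21020706 (plus strand, peak in 6 libraries), ZNF91 at chr19:23395422-23395721 (minus strand, peak in 5), ZNF93 at chr19:19900696-19900995 (plus strand, no peak) and ZNF208 at chr19:22010894-22011193 (minus strand, no peak), and from ZNF671 at chr19:57727575-57727874 (minus strand, no peak).
ZNF430: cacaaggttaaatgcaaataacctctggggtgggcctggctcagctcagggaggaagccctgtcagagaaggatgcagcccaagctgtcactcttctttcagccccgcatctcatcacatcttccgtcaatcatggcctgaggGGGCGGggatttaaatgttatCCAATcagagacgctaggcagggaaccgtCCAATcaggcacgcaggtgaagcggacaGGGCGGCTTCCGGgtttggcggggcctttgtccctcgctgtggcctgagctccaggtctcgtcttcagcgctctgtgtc
ZNF91: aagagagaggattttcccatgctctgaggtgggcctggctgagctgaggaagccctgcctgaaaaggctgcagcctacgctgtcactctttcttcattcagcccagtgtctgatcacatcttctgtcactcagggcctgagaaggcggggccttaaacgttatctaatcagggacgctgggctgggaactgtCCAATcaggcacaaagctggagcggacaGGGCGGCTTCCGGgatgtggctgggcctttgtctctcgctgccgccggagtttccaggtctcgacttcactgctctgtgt
ZNF93: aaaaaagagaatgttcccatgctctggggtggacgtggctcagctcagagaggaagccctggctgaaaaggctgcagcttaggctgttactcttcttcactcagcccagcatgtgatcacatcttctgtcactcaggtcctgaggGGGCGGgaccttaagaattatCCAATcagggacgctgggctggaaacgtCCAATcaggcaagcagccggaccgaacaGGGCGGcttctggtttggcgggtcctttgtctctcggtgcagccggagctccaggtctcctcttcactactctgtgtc
ZNF208: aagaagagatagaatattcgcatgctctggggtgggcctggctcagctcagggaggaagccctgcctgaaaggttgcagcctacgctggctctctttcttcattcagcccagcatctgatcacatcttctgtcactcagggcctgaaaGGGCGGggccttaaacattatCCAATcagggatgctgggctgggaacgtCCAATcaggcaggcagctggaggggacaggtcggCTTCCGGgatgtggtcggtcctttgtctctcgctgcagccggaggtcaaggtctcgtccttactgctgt
ZNF671: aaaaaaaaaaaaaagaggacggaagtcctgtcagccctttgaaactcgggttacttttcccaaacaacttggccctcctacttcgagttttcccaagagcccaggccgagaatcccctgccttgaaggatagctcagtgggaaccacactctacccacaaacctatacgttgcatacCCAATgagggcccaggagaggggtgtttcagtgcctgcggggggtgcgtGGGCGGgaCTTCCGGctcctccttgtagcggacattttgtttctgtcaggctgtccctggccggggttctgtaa

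A promoter peak in every library was found for 98 of the 240 genes (40.8%), and 89 (37.1%) had none in any library. Among all protein-coding genes these shares were 51.9% and 25.5%, among the other genes of chromosome 19 they were 54.5% and 24.4%, and among ZNF genes of other chromosomes 64.0% and 15.3%. The remaining 53 genes (22.1%) had a peak in 1 to 5 libraries. Of the 24 genes with a peak in 5 libraries, 21 lacked it in untreated replicate 2. Without that library 119 genes (49.6%) had a peak in every library left.

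**Figure D1:**
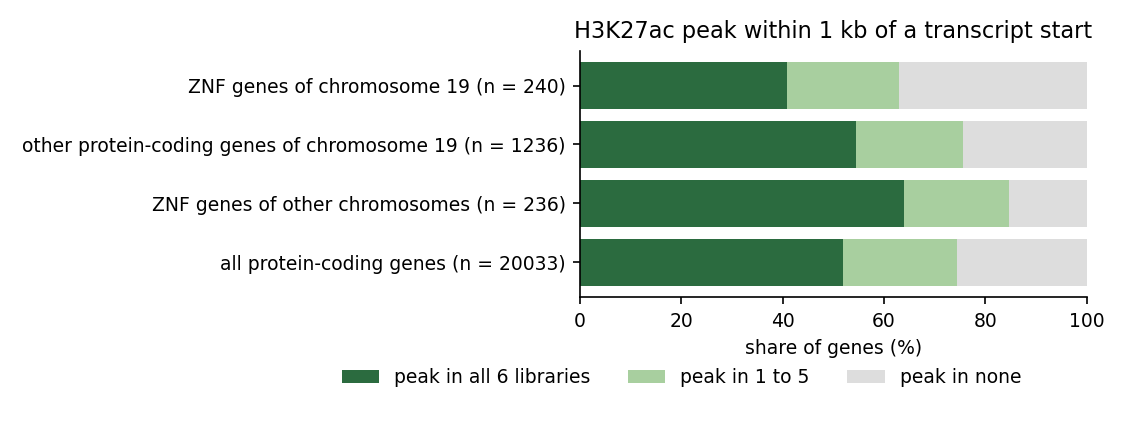
Share of genes (x axis, percent) with an H3K27ac peak within 1 kb of a transcript start in all 6 libraries, in 1 to 5 or in none, for 4 sets of genes. The bar of the chromosome 19 ZNF genes has the smallest part with a peak in every library (40.8%) and the largest with none (37.1%).

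Of the 240 genes, 107 in untreated replicate 1 held one of the library's 20000 highest peaks, and 57 in untreated replicate 2. The counts were 107 and 96 with cobimetinib, and 93 and 87 with TNFα. The share of all protein-coding genes was between 44.6 and 51.6% in 5 libraries and 32.5% in untreated replicate 2, against 36.3 to 44.6% and 23.8% for the ZNF genes. In all 6 libraries 43 of the ZNF genes (17.9%) were in this set, against 25.8% of all genes, and 70 (29.2%) were once untreated replicate 2 was left out. Where a ZNF gene had a peak, that peak stood at a similar place in its list as those of other genes: the median rank percentile, over the genes with a peak and then over libraries, was 12.9 for the ZNF genes and 11.5 for all genes.

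The best peaks were centred near the start of the canonical transcript, with library medians from 72 to 176.5 bp downstream, and 53 of the 98 genes had a peak that covered an annotated start itself in all 6 libraries. In each library 28 to 31 of the ZNF genes shared their best peak with another protein-coding gene, 20.6 to 26.4% of those with a peak, against 24.6 to 26.3% over all genes. Reads were kept only above a mapping quality, so the uniqueness of the sequence was also counted: of the 31-base words within 250 bp of the canonical start, the median gene had 100% present once in hg38, both among the 98 genes with a peak in every library and among the 89 with none. The 10th percentiles were 86.9% and 86.2%, and 3 genes lay under 50%, of which ZNF28 and ZNF468 had a peak in every library and ZNF208 in none. These values pool all clusters, and the share differed along the chromosome, as given below. The best peak of ZNF28 lay outside the counted sequence in untreated replicate 2 and cobimetinib replicates 1 and 2. There it was centred -35704 to -35866.5 bp from the canonical start.

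Along the chromosome, 228 of the 240 genes fell into 10 subclusters of at least 5 genes, divided at gaps over 500 kb, and 12 were scattered. Subclusters 1 (5 genes, 2.82 to 2.94 Mb) and 2 (13 genes, 8.51 to 9.79 Mb) lie toward the end of the short arm, followed by subcluster 3 (25 genes, 11.5 to 12.6 Mb). Subcluster 4 (37 genes, 19.7 to 24.1 Mb) leads up to the centromere and contains ZNF91 and ZNF93, whose proteins are known to repress SVA and LINE-1 elements. On the long arm lie subclusters 5 (5 genes, from 34.7 Mb), 6 (24 genes, 36.2 to 37.8 Mb) and 7 (23 genes, 43.5 to 44.5 Mb). Subclusters 8 (39 genes, 51.6 to 53.6 Mb), 9 (16 genes, 55.5 to 56.7 Mb) and 10 (41 genes, 57.2 to 58.5 Mb) lie toward its end.

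Subcluster 4 had the lowest median share of genes among the highest peaks. Of its 37 genes, 11 were among the 20000 highest peaks in untreated replicate 1 and 1 in replicate 2, 9 and 8 with cobimetinib, and 5 and 4 with TNFα. In the untreated libraries the values thus span those of both treatments. Both cobimetinib counts were above both TNFα counts, while over all genes the shares overlapped (46.8 and 48.1% with cobimetinib, 47.4 and 44.6% with TNFα). These counts were not tested. In the fit described below, the 7 tested genes of this subcluster had a median difference of 0.10 for TNFα against cobimetinib, the other direction. A peak of any score was present in every library for 7 of the 37 genes, and 23 had none. The sequence near the canonical start was also less unique in subcluster 4. Its median gene had 91.5% of the words counted above present once in the genome, with a 10th percentile of 79.7%. The medians of the other subclusters were 98.7 to 100%. Whether this lowered the number of peaks called in subcluster 4 was not tested. In subcluster 6, 14 of 24 genes had no peak and 6 had one in every library. At the other end, subcluster 2 had a median of 65.4% of its 13 genes among the highest peaks, with 9 genes marked by a peak in every library, and subcluster 9 a median of 56.3% of 16. The scattered genes, which are no cluster, had a median of 66.7% of 12. Between the highest and the lowest subcluster the share differed by a median of 46.5 percentage points over the 6 libraries, and by 88.6 points when a gap of 250 kb divided the subclusters. The other subclusters had medians from 23.9% (subcluster 7) to 50% (subcluster 1, of 5 genes).

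**Figure D2:**
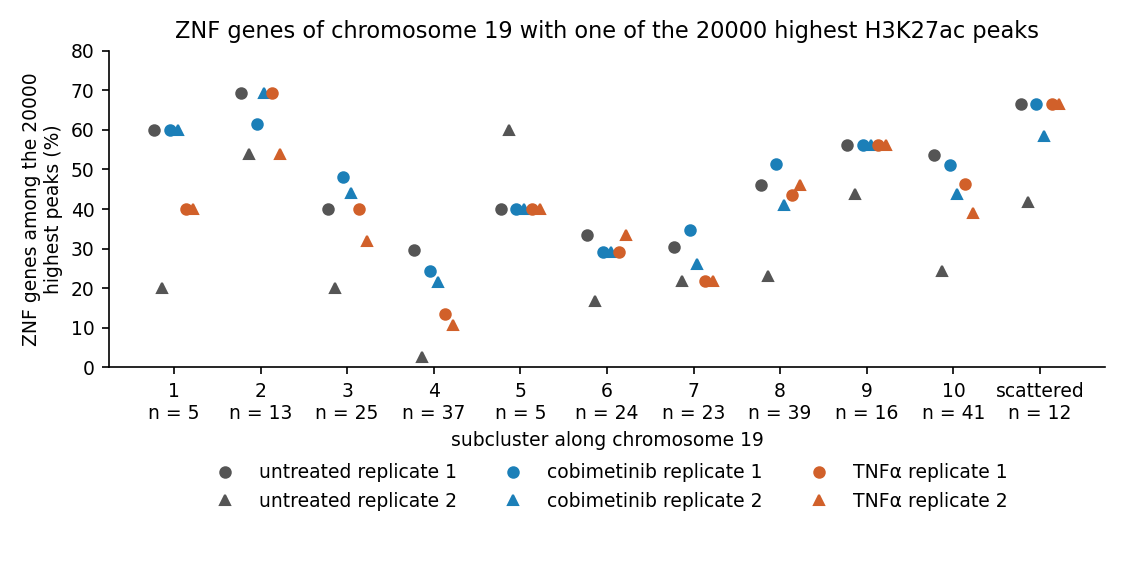
Share of the ZNF genes of each subcluster (x axis, in order along chromosome 19, with the number of genes) whose promoter peak was among the library's 20000 highest (y axis, percent), 1 point per library. Subcluster 4 has values from 2.7 to 29.7%, subcluster 2 from 53.8 to 69.2%, and untreated replicate 2 is the lowest point or level with it in every subcluster except subcluster 5.

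The stretches of chromosome between the first and last gene of the subclusters held fewer peaks per length. They had 6.31 to 10.5 of the 20000 highest peaks per Mb, depending on the library, against 14.6 to 22.8 on the rest of the chromosome. Over 1 kb from any start of a protein-coding gene, the density was 1.66 to 2.15 per Mb in these stretches and 5.70 to 8.67 elsewhere. In every library the density was lower within the subclusters. The last exon, which encodes the fingers in most of these genes, overlapped a peak over 1 kb from any start of the gene in at least 1 library for 29 genes. In all 6 this held for ZNF100, ZNF565, ZNF283 and ZNF404, which were named after their values were seen. The count was not made for other genes, so it has no background share. Peaks at the start of a neighbouring gene were not excluded.

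The promoters themselves differed along the chromosome. A RefSeq promoter was found for 210 of the 240 genes. Their CpG ratio, the number of CpG dinucleotides over that expected from the base composition, had a median of 0.76, against 0.77 for all 15351 genes with a sequence. In subcluster 4 it was 0.44 and in subcluster 3 it was 0.61, whereas the other subclusters had medians of 0.75 to 0.87. A ratio of at least 0.6 was found in 78.6% of the ZNF promoters and in 66.5% of all promoters. Genes without a peak had different ratios in the ZNF genes and over all genes: of the ZNF genes with no peak in any library, 69.3% of 75 promoters had a ratio of at least 0.6, and of all genes with no peak 33.2% of 3668 had one. Conversely, among promoters with a ratio of at least 0.6, a peak in every library was present at 47.3% of 165 ZNF genes, at 70.1% of 157 ZNF genes of other chromosomes and at 70.5% of 10214 genes overall. Under that ratio the shares were 24.4% of 45, 43.2% of 37 and 23.1% of 5137. Outside subcluster 4 the share at CpG-rich ZNF promoters was 48.4% of 161. These are descriptions of the reference sequence beside the peak lists, with no test.

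**Figure D3:**
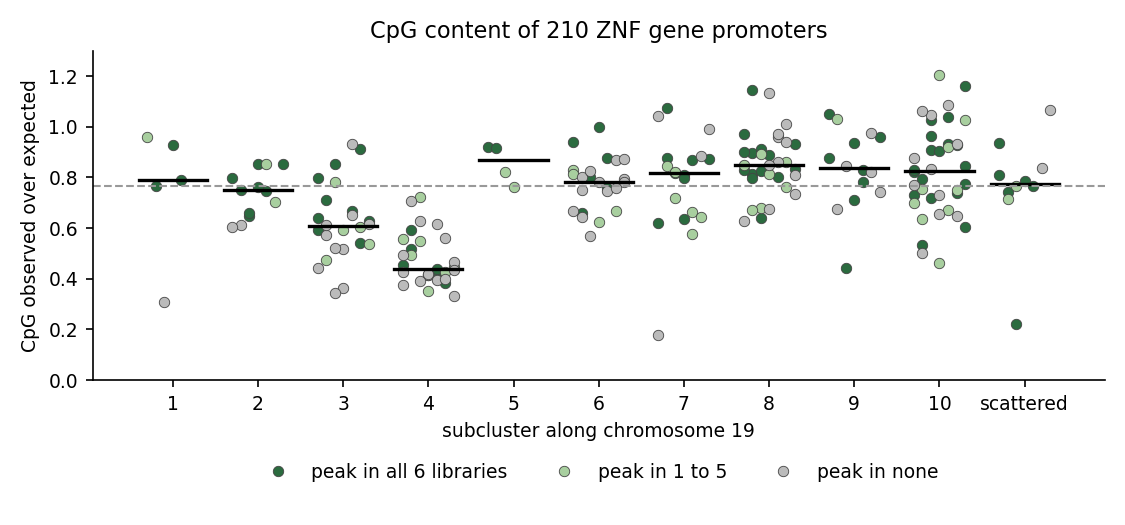
CpG observed over expected (y axis) in the promoter of each ZNF gene with a RefSeq sequence, by subcluster (x axis), coloured by the presence of an H3K27ac peak. Black lines are medians and the dashed line is the median of all protein-coding genes (0.77). Subclusters 4 and 3 lie lowest, at 0.44 and 0.61, and genes without a peak occur at high and low ratios.

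The promoters of subcluster 4 were alike in sequence. Aligned in pairs over their whole length, they had a median identity of 75.8% over 406 pairs, against 50.4% for pairs from different subclusters and 50.6 to 56.1% within the other subclusters. The word CCAAT was found in all 29 of its promoters (100%), against 52.9% of the ZNF promoters and 36.6% of all promoters. CCGGAAG was in 72.4% of them. In the printed examples the pattern of CCAAT words upstream and GGGCGG and CCGGAAG words near the start is shared by ZNF430 and ZNF91, which had peaks, while ZNF208, which had none, holds 2 CCAAT, 1 GGGCGG and 1 CCGGAAG word. ZNF93, also unmarked, has 2 CCAAT and 2 GGGCGG words and no match to CCGGAAG. These words were thus present in promoters of both kinds, and ZNF576, with the best ranks of the family, holds none of the 3.

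Over all ZNF promoters CCGGAAG was found in 44.3%, against 14.4% of all promoters. Over all genes, those with the word had a peak in every library more often (81.6% of 2210) than those without it (50.1% of 13141). Among the ZNF genes of chromosome 19 the shares were 35.5% of 93 with the word and 47.9% of 117 without it, and outside subcluster 4 they were 40.3% of 72 and 49.5% of 109. For ZNF genes of other chromosomes they were 72.2% of 72 and 60.7% of 122. The other words were GGGCGG (69.5% of ZNF promoters, 59.2% of all), TATAAA (1.90% and 9.62%), the AP1 words TGACTCA and TGAGTCA (2.38% and 3.67%), GCGCATGC, a core of NRF1 sites (3.33% and 4.25%), ACTACAA, part of a ZNF143-like site (5.24% and 3.22%), and AAGATGGCG of YY1 (3.33% and 2.79%). Each was searched on both strands of 300 bases, and a match describes the letters, not binding.

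A start of another protein-coding gene on the opposite strand lay within 1 kb of a start of 30 of the ZNF genes (12.5%), of which 15 had a peak in every library. Over all genes 17.7% had such a neighbour, and 83.0% of those had a peak in every library, against 45.2% of genes without one. Among the ZNF genes without one, 39.5% of 210 had a peak in every library. Counted in the translated canonical coding sequence, the proteins held from 1 (ZNF428) to 39 (ZNF729) fingers, with a median of 12. The median was 12 among genes with a peak in every library and 13 among those with none.

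The strongest promoter peaks in this family were those of ZNF576, with ranks of 414.5 and 147 in the untreated libraries, 88.5 and 231.5 under cobimetinib and 164 and 285.5 under TNFα. ZNF524 followed, at 606.5 and 501 without treatment, 219 and 139 with cobimetinib and 414 and 772.5 with TNFα. ZNF574 ranked 362.5 and 795 without treatment, 847 and 1099 with cobimetinib and 1067 and 2523 with TNFα. Both untreated values of ZNF574 were thus nearer the top than all 4 treated ones, and for ZNF524 both cobimetinib values were nearer the top than the other 4. The next in order of mean rank were ZNF333, ZNF562, ZNF444, ZNF784, ZNF302, ZNF699 and ZNF653, with mean ranks from 1415 to 2979. Within 1 kb of a start of ZNF576, ZNF524, ZNF574 and ZNF333 lies an opposite-strand start of IRGQ, FIZ1, GRIK5 and ADGRE3, respectively. The peaks of ZNF576, ZNF524 and ZNF574 were centred upstream of the canonical start in every library. A peak between such neighbours cannot be assigned to either gene. ZNF524, ZNF444 and ZNF784 all belong to subcluster 9.

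ZNF562, a KRAB zinc finger gene of subcluster 2, ranked 663 and 3306 without treatment, 590 and 2953 with cobimetinib and 863.5 and 2174 with TNFα. The 3 groups overlapped. Its peak was 569 bp wide in untreated replicate 2 and between 919 and 1673 bp in the other libraries. In the remaining large subclusters the best genes by mean rank were ZNF738 (subcluster 4), ZNF611 (subcluster 8), ZNF460 (subcluster 10), ZNF565 (subcluster 6) and, again, ZNF653 (subcluster 3). ZNF738 ranked 10656 and 29057.5 without treatment, 17447 and 11303.5 with cobimetinib and 3893 and 13009 with TNFα. The replicates of ZNF460 lay far apart, at 974.5 and 5234.5 without treatment, 5461 and 240 with cobimetinib and 2541 and 6572 with TNFα.

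**Figure D4:**
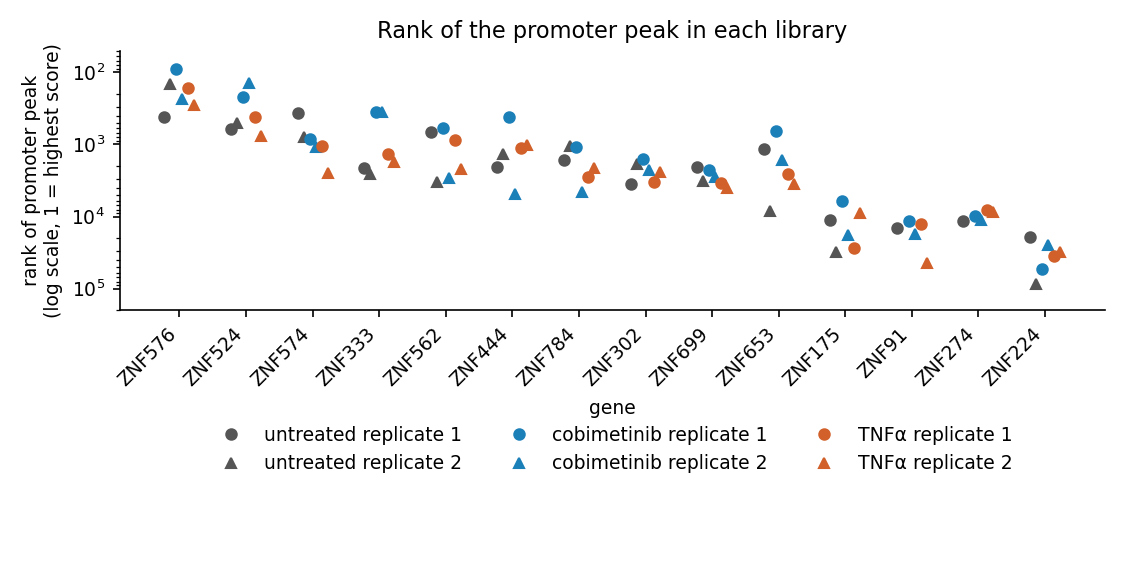
Rank of the promoter peak (y axis, log scale, 1 is the highest score of the library) of the 10 ZNF genes with the best mean rank and of ZNF175, ZNF91, ZNF274 and ZNF224, 1 point per library. ZNF576 lies between ranks 88.5 and 414.5, and replicates of a group are often as far apart as the groups. ZNF91 and ZNF274 have no point for untreated replicate 2.

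Among genes of known interest, ZNF671, ZNF331, ZNF382 and ZNF471, whose promoters are known to be methylated in various tumours, had no promoter peak in any library. ZNF93 and ZNF676 also had none. ZNF91 had a peak in 5 libraries, at 14228 in untreated replicate 1, 11530 and 17683 under cobimetinib and 12822.5 and 44788.5 under TNFα. ZNF274, whose protein recruits SETDB1 to the 3′ ends of zinc finger genes, likewise lacked a peak only in untreated replicate 2 and ranked 11545.5 in replicate 1, 9959 and 11131.5 with cobimetinib and 8005.5 and 8591.5 with TNFα. Both TNFα values of ZNF274 were nearer the top than the other 3. ZNF350 had a peak in 3 libraries, ranked 38594.5 in untreated replicate 1 and 84546.5 and 18249 under cobimetinib, the last among the 20000 highest of its library. ZNF175 and ZNF224 had one in all 6, with ranks from 6062.5 to 31498 and from 19367 to 86440.5. The first 15 genes along the chromosome without any peak were ZNF556, ZNF177, ZNF560, ZNF491, ZNF439, ZNF69, ZNF763, ZNF878, ZNF844, ZNF20, ZNF625, ZNF563, ZNF442, ZNF709 and ZNF506.

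To ask whether the marks moved with MAPK inhibition or TNFα, ranks of the 10392 genes with a promoter peak in all 6 libraries were compared by limma on the negative log2 scale after quantile normalization. A positive difference means nearer the top of the list, and 1 unit is a change of rank by 2 times. Of the 240 ZNF genes 98 could be tested and 142 could not. No ZNF gene passed an adjusted p of 0.05 (limma, Benjamini-Hochberg over all genes tested) in any comparison. With an unadjusted p under 0.05 there were 7 for cobimetinib against untreated, 5 for TNFα against untreated and 6 for TNFα against cobimetinib. The smallest adjusted p among them was 0.308, 0.860 and 0.450 in that order. Over all genes tested, 0%, 0.00962% and 0.00962% were called. Widths of the same peaks gave no call for any gene (0% in each comparison), with 3, 2 and 6 ZNF genes at an unadjusted p under 0.05. With 2 libraries against 2 an exact permutation test of a single gene cannot go below p = 0.333. The replicates are numbered in the labels without a statement that they were separate cultures, so these values measure the spread between these libraries.

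Genes whose 2 normalized ranks in one group were both above or both below those of the other were counted beside the same count over all 10392 genes. Every statement that groups did not overlap refers to these normalized values, and the ranks as printed can overlap. For cobimetinib against untreated, 21 of the 98 ZNF genes were higher, 21.4% against 19.4% of all genes, and 13 were lower, 13.3% against 18.3%. For TNFα against untreated, 14 were higher (14.3% against 15.9%) and 17 lower (17.3% against 16.3%). The median differences of the ZNF genes were 0.07 and -0.07, and those of all genes -0.02 and -0.03. With a library left out the ZNF medians ran from 0.01 to 0.17 and from -0.12 to 0.00, and without normalization they were 0.40 and 0.03, against 0.31 and 0.11 for all genes. Both comparisons share the untreated libraries, and in both the ZNF genes stood near the background. Without untreated replicate 1, where the lone replicate 2 is assumed to vary like the other groups, 5 ZNF genes were called for cobimetinib, 5.1% against 5.85% of all genes, and 4 for TNFα, 4.08% against 3.78%. These shares were near the background. ZNF808 was higher and ZNF490, ZNF791 and ZNF100 lower in both, and ZNF544 was lower for cobimetinib. Leaving out any other library gave 0 calls in these comparisons.

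Between the agents, more of the ZNF genes ranked lower under TNFα than higher. Of the 98, 32 had both TNFα ranks below both cobimetinib ranks, 32.7% against 22% of all genes, and 8 had both above, 8.16% against 21.2%. Their median difference was -0.37, with quartiles of -0.79 and 0.23, while the median over all genes was -0.02. Taking each TNFα library against each cobimetinib library, the median was -0.38, -0.34, -0.45 and -0.35, and 61 to 63 of the 98 genes were lower in each of the 4 pairs. When a library was left out, the median lay between -0.50 (without TNFα replicate 1) and -0.20 (without cobimetinib replicate 1). With 1 library in a group more genes do not overlap by construction, and without cobimetinib replicate 2 the counts were 50 lower and 23 higher of 100, against 36.6% and 35.9% of all genes. By width of the same peaks, 20 of the 98 were lower, 20.4% against 20.2% of all genes. In width 9 were higher, 9.18% against 18.1%, and the median difference was -0.10, against -0.02 for all genes. The share of lower genes was thus above the background by rank only. No single gene passed the test, and no test was made of the set.

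The other genes of chromosome 19 had a median difference of 0.15 in this comparison, with 24.3% higher and 17.4% lower of 674 tested. The ZNF genes of other chromosomes had a median of -0.12, with 13.9% higher and 23.2% lower of 151. In each of 5 equal bins of all genes by mean rank, the ZNF genes had a median between -0.50 and -0.10, and all genes one between -0.04 and 0.00. With the untreated libraries left out, so that a peak was needed in 4 libraries only, 119 ZNF genes could be tested. Of these 35 were lower (22.0% of all genes) and 13 higher (21.1%), and the median was -0.29. In that fit 110 genes passed the adjusted p, none of them a ZNF gene of chromosome 19.

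**Figure D5:**
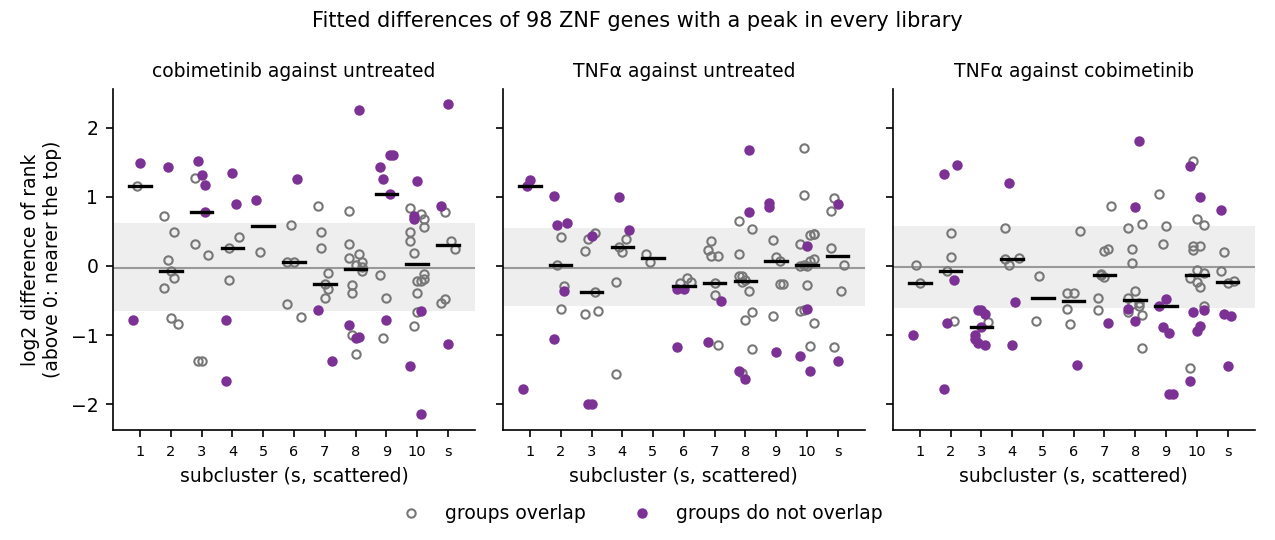
Fitted log2 difference of rank (y axis, above 0 is nearer the top of the list) of the 98 ZNF genes with a peak in every library, by subcluster (x axis; s, scattered), for the 3 comparisons. Filled points are genes whose groups do not overlap after normalization, black bars are medians, and the grey band and line are the quartiles and median of all genes. In the right panel all 9 genes of subcluster 3 lie below 0.

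Subclusters 3 and 9 had the most such genes, and those of subcluster 3 are named after their values were seen. In subcluster 3 all 9 tested genes had a negative difference, and 8 of them had groups that did not overlap. By width 2 of the 9 were lower without overlap, and the median difference was 0.0009. ZNF490 and ZNF791 share 1 peak, so the 9 genes stand for fewer peaks. ZNF823 ranked 5971.5 and 9554 under cobimetinib and 13739 and 20310 under TNFα, a difference of -1.15 (SE 0.68). ZNF44 ranked 5728 and 8705.5 under cobimetinib and 18256.5 and 13319 under TNFα (-1.12, SE 0.68), with untreated ranks of 15100 and 53122. For ZNF44 both cobimetinib values were thus nearer the top than the other 4. ZNF653 ranked 640.5 and 1656 under cobimetinib and 2541 and 3592.5 under TNFα (-1.06, SE 0.81). Its difference was -0.47 without cobimetinib replicate 1 and reached -1.62 with another library left out. In subcluster 9, 6 of 9 tested genes were lower without overlap and the median was -0.58. These include ZNF580 and ZNF581, which share their best peak in each library. The 7 tested genes of subcluster 4 had a median of 0.10, with 1 higher and 2 lower.

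The largest separated differences under TNFα against cobimetinib were those of ZNF580 and ZNF581, neighbours in subcluster 9 that share their best peak in each library. The shared peak ranked 1728.5 and 3648.5 under cobimetinib and 9191.5 and 12564 under TNFα, with 6407.5 and 13195.5 untreated. In cobimetinib replicate 2 it was a different peak, centred 2249 bp from the canonical start of ZNF580, against -5728.5 to -5879 bp in the other libraries. The values thus do not all describe the same region. The difference was -1.86 (SE 0.69, limma adjusted p = 0.450). ZNF559 (-1.78, SE 0.77), ZNF264 (-1.67, SE 0.79) and ZNF333 (-1.44, SE 0.66) followed. Without cobimetinib replicate 1 ZNF559 had -1.07 and ZNF264 -2.78, and without cobimetinib replicate 2 ZNF264 had -0.57. ZNF333 ranked 2102.5 and 2611.5 without treatment, 357 and 351.5 with cobimetinib and 1336.5 and 1730 with TNFα. All 4 treated values were thus nearer the top than the untreated ones, and those of cobimetinib nearer than those of TNFα.

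In the opposite direction ZNF432 stood first, with 54201 and 55658.5 under cobimetinib and 15717.5 and 17835 under TNFα, a difference of 1.81 (SE 0.67, limma adjusted p = 0.450). Its peak was 172 and 191 bp wide under cobimetinib and 560 and 454 bp under TNFα. ZNF558 (1.46, SE 0.77), ZNF548 (1.45, SE 0.67), ZNF121 (1.33, SE 0.73) and ZNF738 (1.20, SE 0.75) were also higher. ZNF558 had 2.41 and 0.51 without cobimetinib replicates 1 and 2. Without TNFα replicate 1 ZNF121 had 0.61 and ZNF738 0.32, and without TNFα replicate 2 they had 2.104 and 2.16. The ranks of ZNF121 and ZNF738 overlapped between the agents before normalization.

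For cobimetinib against untreated, ZNF333 had a difference of 2.34 (SE 0.66, limma adjusted p = 0.308). ZNF808 (2.26, SE 0.78), ZNF580 and ZNF581 (1.604, SE 0.69) and ZNF44 (1.52, SE 0.68) were also higher without overlap. For ZNF580 and ZNF581 the best peak of cobimetinib replicate 2 was a different one from that of the other libraries, as given above. ZNF808 ranked 7912 and 96281 untreated and 4692 and 2700.5 under cobimetinib, so that its value rests largely on untreated replicate 2. Without that library its difference was 1.20. Lower were ZNF544 (-2.15, SE 0.81), ZNF100 (-1.66, SE 0.87), ZNF548 (-1.45, SE 0.67), ZNF235 (-1.38, SE 0.75) and ZNF574 (-1.12, SE 0.70). Without untreated replicate 2 ZNF544 had -0.81 and ZNF100 -0.31, and without untreated replicate 1 they had -3.37 and -3.03. ZNF235 had -2.24 and -0.46 without cobimetinib replicates 1 and 2, and its ranks overlapped before normalization. Its best peak was centred 317.5 bp from the canonical start in cobimetinib replicate 1 and 1441 bp from it in replicate 2. ZNF548 ranked 2807 and 5234.5 without treatment, 8776 and 10649.5 with cobimetinib and 4688.5 and 3965.5 with TNFα, so that both cobimetinib values were farther from the top than the other 4.

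For TNFα against untreated, ZNF808 (1.68, SE 0.78), ZNF77 (1.25, SE 0.73), ZNF57 (1.16, SE 0.75), ZNF121 (1.01, SE 0.73) and ZNF738 (1.00, SE 0.75) were higher without overlap after normalization, although before it the ranks of all but ZNF121 overlapped. Without untreated replicate 2 ZNF808 had 0.63, ZNF77 0.47 and ZNF57 0.44, and without untreated replicate 1 they had 2.79, 2.05 and 1.93. Without TNFα replicate 1 ZNF121 had 0.28 and ZNF738 0.11, and without TNFα replicate 2 they had 1.77 and 1.96. ZNF490 and ZNF791 (-2.01, SE 0.87), ZNF555 (-1.78, SE 0.67), ZNF614 (-1.63, SE 0.79) and ZNF611 (-1.52, SE 0.72) were lower. The shared peak of ZNF490 and ZNF791 ranked 6040 and 1108 untreated and 8593.5 and 12149.5 under TNFα, and the difference was -0.48 without untreated replicate 2 and -3.50 without untreated replicate 1. ZNF555 ranked 7814 and 16075.5 without treatment, 13869 and 16780 with cobimetinib and 25101.5 and 44788.5 with TNFα, and both TNFα values were farther from the top than the other 4.

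Counted over all 240 genes rather than those tested, 6 were among the 20000 highest peaks of both cobimetinib and neither TNFα library, 2.5% against 1.77% of all genes. These were ZNF555, ZNF557, ZNF430, ZNF675, ZNF254 and ZNF227. The reverse was found for ZNF527, ZNF114 and ZNF432, 1.25% against 1.32%. ZNF430, ZNF675 and ZNF254 belong to subcluster 4. The best peak of ZNF254 was centred -52701.5 to -53402 bp from its canonical start in every library. That of ZNF227 was centred at -4694 and -4990 bp under cobimetinib and at -5210.5 and 194 bp under TNFα. The ranks of ZNF227 thus do not all describe the same region. ZNF675 ranked 18655 and 14477 under cobimetinib and 31693 and 25159 under TNFα. At 10000 or 40000 peaks the counts were 7 and 2 in the first direction and 1 and 2 in the second.

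The genes for partners of KRAB zinc finger proteins had promoter peaks throughout. Of 25 genes for corepressors and heterochromatin factors, 24 had a promoter peak in every library, the exception being SUV39H2, and 12 were among the 20000 highest peaks in all 6. TRIM28, the corepressor that KRAB domains bind, ranked 225 and 157.5 without treatment, 34 and 57.5 with cobimetinib and 49 and 70 with TNFα. CBX5 (heterochromatin protein 1 alpha), SMARCAD1 (a chromatin remodeller), TASOR (of the HUSH complex) and MORC2 had mean ranks of 937, 2197, 3829 and 5980. None of the 24 passed the test in any comparison (limma), and 1, 2 and 0 had an unadjusted p under 0.05 for cobimetinib against untreated, TNFα against untreated and TNFα against cobimetinib. The median difference of the 24 in the last comparison was -0.08.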

How the data were processed

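H3K27ac CUT&RUN of HCT116 cells was represented by 6 peak lists, 2 per condition. Per the study's methods the authors trimmed reads with BBDuk, aligned them to hg38 with BWA 0.7.15, kept mapping qualities over 10, called peaks with MACS2 2.1.1 at p = 0.01 in paired-end and single-end mode without the IgG background, and merged both sets with bedtools, keeping the highest score. The deposited score is thus a whole number per merged peak, not a read count, and read depth is unknown; untreated replicate 2 had been resequenced and merged, going by its peak names.

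Promoter peaks were assigned with GENCODE 44 (window 1 kb), and scores were turned into ranks within each library, ties averaged. Genes with a peak in all 6 libraries were compared by limma 3.58.1 (R 4.3.3) on -log2(rank) and log2(width), quantile normalized, in 1 fit of the 3 conditions, with Benjamini-Hochberg adjustment over all genes; the code was tested on simulated data. Promoter sequence was RefSeq GRCh38.p14, and pairs were aligned with Biopython 1.88. Sets of fewer than 5 genes after a gap over 500 kb counted as scattered.

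Named genes were the 10 best mean ranks, the best of the 5 largest subclusters, genes of known role, the 5 largest differences without overlap in each direction of each comparison, the first 15 without a peak and the 6 best of the corepressor list, of which 1 is not reported here. The genes and lists were chosen with earlier results of these data known. Alternatives covered the normalization, window, score minimum, gap, peaks in the highest set, missing peaks, ties and each library left out.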

Additional observations from a re-analysis of the deposited data

How the results depend on the processing

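The median difference of the ZNF genes between TNFα and cobimetinib was negative under every alternative run, from -0.57 to -0.20, and the low value of -0.57 came without normalization, where the median of all genes itself moved to -0.21. The differences of the named genes kept their sign in each alternative that gave a value. These genes had been picked for groups that did not overlap, so leaving out a library could hardly reverse a sign. The kept signs are therefore no evidence of stability. The median of the ZNF genes for TNFα against untreated, -0.07, ranged from -0.12 to 0.05 over the alternatives. That for cobimetinib against untreated, 0.07, ranged from 0.01 to 0.40, the last without normalization, where the median of all genes was 0.31. Leaving out 1 library at a time gave 0 to 5 ZNF genes called for cobimetinib against untreated and 0 to 4 for TNFα against untreated, at most 5.1% and 4.08%, while all genes reached 5.85% and 3.78%. Genes without overlap then numbered 21 to 40 higher and 13 to 36 lower for cobimetinib against untreated, 14 to 37 and 17 to 47 for TNFα against untreated, and 8 to 23 and 32 to 50 for TNFα against cobimetinib, since 1 library in a group overlaps less often. Over all genes these shares were 19.2 to 37.5% and 18.3 to 39.0%, 15.8 to 37.1% and 16.3 to 38.8%, and 21.1 to 35.9% and 22.0 to 36.6%. Genes among the 20000 highest peaks of every library then numbered 43 to 70. With a score of at least 50, fewer genes were left: 37 ZNF genes had a peak in all 6 libraries, and the median rank percentile was 38.9. Those without overlap were 3 and 5, 4 and 6, and 4 and 9 (higher and lower, comparisons in the same order). Over all 4628 genes tested there, the counts were 905 and 838, 761 and 749, and 1009 and 1069. For TNFα against cobimetinib the share lower was thus near that of all genes, and the share higher stayed below it. Without normalization 7 of 98 ZNF genes were lower for cobimetinib against untreated, beside 1437 of all 10392 genes. For TNFα against untreated 8 ZNF genes were higher, beside 1338 of all genes. With missing peaks put after the end of the list, 151 ZNF genes were tested among 14920 genes. Of the ZNF genes 27 were higher for TNFα against untreated, beside 2189 of all genes. For TNFα against cobimetinib 18 were higher, beside 2728 of all genes. With the untreated libraries left out, an alternative chosen after seeing the data, 13 of 119 ZNF genes were higher for TNFα against cobimetinib. Of all genes 21.1% were. If the peak had to overlap the start, 60 genes had one in all 6 libraries. Among the 10000 or 40000 highest peaks of all libraries there were 19 and 65. A gap of 250 kb raised the difference between subclusters to 88.6 percentage points. The counts that separate both libraries of an agent from neither of the other, also varied after seeing the data, were 1 for TNFα at 10000 peaks and 2 for cobimetinib at 40000. The cause of these shifts was not tested where it is not given.

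Deviations from the group means were little correlated between libraries of the same replicate number (-0.04, 0.11 and 0.04 over 10392 genes). Whether the libraries were handled in pairs is not stated in the labels, and these values cannot decide it. With the replicate number as a block 0 ZNF genes were called in each comparison. The counts without overlap do not use the block, so they were the same by construction.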
